A study of Mus musculus with 15 samples.

Results

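Skeletal muscle labelled CD47-KO was compared with muscle of exercised mice, gene by gene, and each exercise set was taken separately. The comparison used 9 of the 15 libraries of the series. These were 3 libraries labelled CD47-KO and 6 labelled exercise, chosen by their column names. All came from C57BL/6 mice aged 12 months, on a normal diet, and the muscle was taken after a night without food. The labels do not give the CD47 allele, the exercise protocol, the sex or which muscle was sampled. The 6 libraries of sedentary wild-type mice entered the fit for the estimate of the spread, and their levels are given beside some genes. The title of the series names a CD47 blocking antibody, exercise, AMPK and mitochondrial energetics, so the comparison sets muscle labelled as lacking CD47 beside muscle after exercise.

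CD47 is a cell surface receptor for the matrix protein thrombospondin 1, and it gives phagocytes a signal not to engulf the cell through SIRPα. In vessels and muscle, the binding of thrombospondin 1 to CD47 is known to restrain nitric oxide and cGMP signalling, and loss of CD47 has been linked to autophagy and to mitochondrial number. Exercise acts in part through AMPK, the kinase that senses low cellular energy, and through the regulators of mitochondrial biogenesis. A night without food, which every group had, raises atrophy and fuel-switching genes in muscle.

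The exercise libraries are treated as sets of numbers 1 to 3 and 4 to 6, which earlier work on these counts had found apart. No label names the sets, and the sample descriptions number the second one 6, 7 and 8. Total counts were 76005277, 76084129 and 84364189 in CD47-KO libraries 1 to 3 and 54851831 to 77628546 in the exercise libraries. In CD47-KO, genes of the mitochondrial genome made up 18.1 to 19.2% of all counts, and in exercise 4.49 to 12.5%. The share of a pair of symbols that stand for cloned sequences was 0.0327 to 0.0596% in CD47-KO and 0.881 to 12.3% in exercise, with the highest share in exercise 2. The values 4, 8 and 12 made up 32.1 to 33.6% of values from 1 to 15 in CD47-KO and 43.6 to 50.2% in exercise, so the values may not be plain counts of single reads. No label says whether the CD47-KO libraries were prepared with either exercise set. Genotype and a possible library batch of the CD47-KO libraries therefore cannot be told apart. Separate animals are not stated, so each p-value reflects variation among these libraries, which may be technical.

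The fold changes followed the base composition of the transcripts. Over 10394 genes at a mean log2-CPM (CPM are counts scaled to the size of the library) of at least 1, Spearman's rho between transcript GC content and the log2 fold change of CD47-KO was -0.67 against exercise 1 to 3 and -0.59 against exercise 4 to 6. These are correlations across genes, which are not independent replicates, and both comparisons share the CD47-KO libraries. In the decile of genes poorest in G and C (median 40.4%), the median log2 fold change was 1.52 and 1.25 against the 2 sets. It was -0.58 and -0.51 in the decile richest in G and C (median 59.8%). Within libraries, the gap between these deciles was 1.19, 1.33 and 1.36 log2 units in the CD47-KO libraries and ran from -1.06 (exercise 2) to -0.18 (exercise 5) in the exercise libraries. The groups did not overlap. These gaps are relative to the gene mean of the same 9 libraries, so a fall in 1 group forces a rise in the other. Their signs show a difference between the groups and not a trend of either group by itself.

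**Figure D1:**
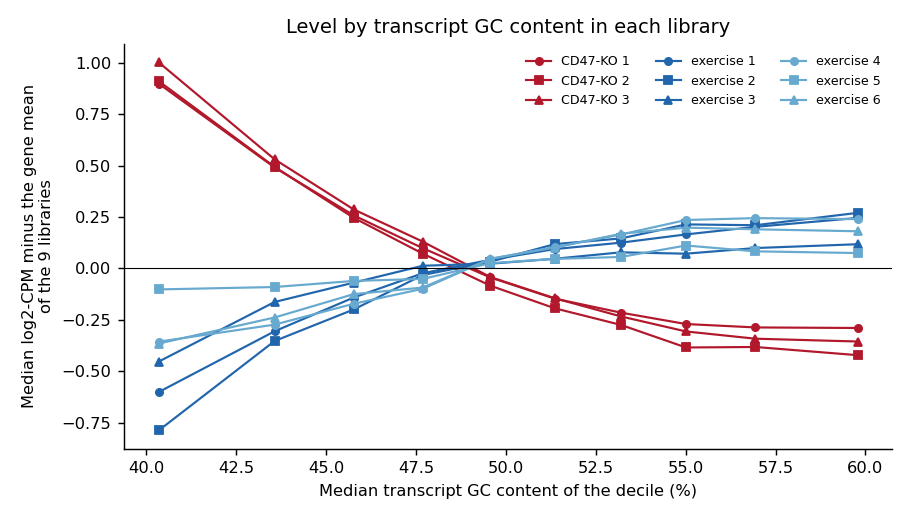
Median log2-CPM minus the gene mean of the 9 libraries (vertical axis) for deciles of genes ordered by transcript GC content (horizontal axis, %), 1 line per library. The 3 CD47-KO lines fall from left to right, with gaps of 1.19 to 1.36 between the end points, and all 6 exercise lines rise. The lines are relative to the mean of these same libraries, so only the difference between the groups can be read.

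The difference in composition can be seen in short stretches of coding sequence. They are shown because these genes, apart from Cd47 and Sesn1, passed against both exercise sets as counted and against neither once GC content was corrected. Each line gives the 60 bases of the coding sequence whose share of G and C was nearest to that of the whole transcript, from the GENCODE M21 annotation of GRCm38, on the plus strand, with G and C in capitals. Mier1 (chr4:103114390-103165754) and Sh3bgrl (chrX:109095365-109197873) were higher as counted. Cd248 (chr19:5068078-5070682) and Acvrl1 (chr15:101128522-101145336) were lower as counted. Cd47 (chr16:49800533-49915010) is the targeted gene, and Sesn1 (chr10:41809935-41908424) is a higher gene of middling composition that kept its call.
Mier1: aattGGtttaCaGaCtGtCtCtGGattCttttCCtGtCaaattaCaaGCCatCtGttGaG
Sh3bgrl: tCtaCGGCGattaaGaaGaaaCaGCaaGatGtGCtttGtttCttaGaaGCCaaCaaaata
Cd248: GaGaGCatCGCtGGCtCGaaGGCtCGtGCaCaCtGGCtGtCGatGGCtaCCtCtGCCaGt
Acvrl1: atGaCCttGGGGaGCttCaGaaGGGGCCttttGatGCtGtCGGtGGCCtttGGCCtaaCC
Cd47: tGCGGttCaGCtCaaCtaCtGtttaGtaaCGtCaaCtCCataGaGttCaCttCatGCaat
Sesn1: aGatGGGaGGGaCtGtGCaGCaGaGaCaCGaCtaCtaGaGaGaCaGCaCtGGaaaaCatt
G and C made up 23 of the 60 bases of Mier1 and 22 of Sh3bgrl, against 37 of Cd248 and 34 of Acvrl1. The windows of Cd47 and Sesn1 held 25 and 30.

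Mier1, a transcriptional repressor, had 34.4, 18.1 and 54.8 CPM in the CD47-KO libraries and 1.79 to 8.76 in exercise, with a median of 2.19. As counted, its log2 fold change was 3.41 (SE 0.80) and 3.08 (SE 0.79) against the sets, and GC-corrected it was 1.65 (adjusted p = 0.187) and 1.71 (adjusted p = 0.138). Sh3bgrl, a small thioredoxin-like protein, had 9.51, 12.0 and 9.53 CPM against 1.15 to 1.97, and its fold change moved from 2.85 and 2.65 to 0.63 (adjusted p = 0.387) and 1.05 (adjusted p = 0.0991). At the other end, Cd248, the stromal and pericyte protein endosialin, had 4.15, 2.81 and 2.14 CPM against 6.99 to 10. Its -1.59 and -1.46 became -1.03 (adjusted p = 0.166) and -0.96 (adjusted p = 0.164). Acvrl1, the endothelial receptor ALK1, went from -1.5 and -1.39 to -0.98 (adjusted p = 0.187) and -0.89 (adjusted p = 0.198). Lysmd3 and the processed pseudogene Oaz1-ps were the remaining genes that the naming rule gave for this class.

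A gene counted as called at an adjusted p under 0.05, from the quasi-likelihood test of edgeR and Benjamini-Hochberg adjustment across the genes tested. As counted, 4584 of 17975 genes (25.5%) were called against exercise 1 to 3, and 5240 (29.2%) against exercise 4 to 6. Against both sets in the same direction, 1740 (9.68%) were higher and 1112 (6.19%) lower in CD47-KO. With a per-library correction for GC content, 2324 of 17923 genes (13%) were called against exercise 1 to 3 and 3345 (18.7%) against exercise 4 to 6. Then 1239 genes (6.91%) were called alike against both sets, 654 (3.65%) higher and 585 (3.26%) lower. By set and direction, 1189 (6.63%) were higher and 1135 (6.33%) lower against exercise 1 to 3, and 1767 (9.86%) higher and 1578 (8.8%) lower against exercise 4 to 6. Against all 6 exercise libraries together 1643 (9.17%) were higher and 1398 (7.8%) lower. After the correction, rho with GC content was 0.01 and -0.01. Values near 0 follow from the correction itself, which takes out a curve fitted on this GC content, so they do not test it.

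**Figure D2:**
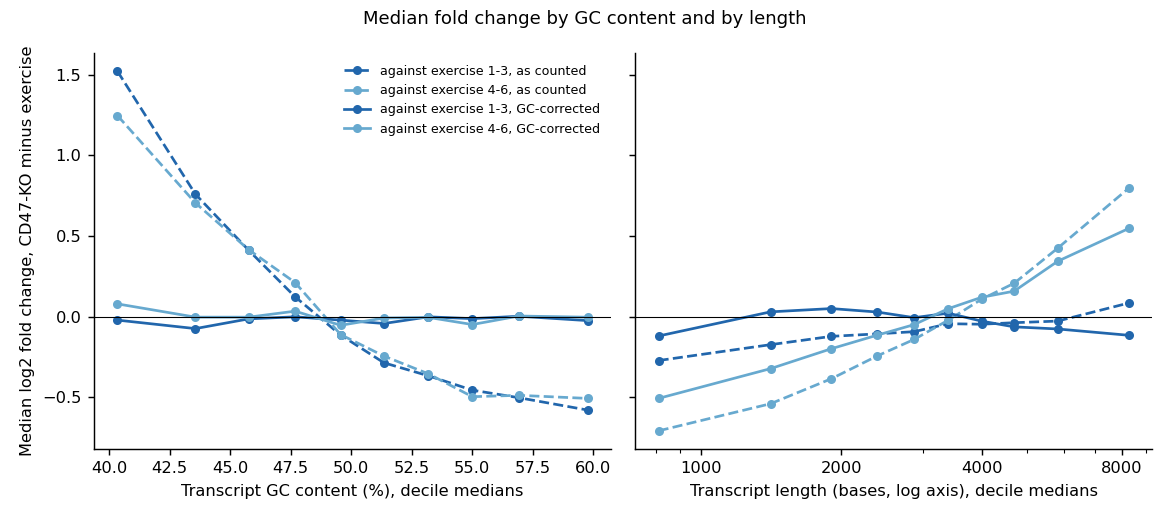
Median log2 fold change of CD47-KO against each exercise set (vertical axis) by deciles of transcript GC content (left, %) and transcript length (right, bases, log axis), as counted (dashed) and GC-corrected (solid). The corrected lines are flat over GC content because the correction makes them so. Against exercise 4 to 6 the corrected line still rises with length, from -0.51 in the shortest decile to 0.55 in the longest.

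The changes described below are those called alike against both sets both as counted and GC-corrected, here called held. There were 540 held higher genes (3.01%) and 252 held lower genes (1.41%). Of 1737 genes higher as counted with a GC value, 540 kept the call and 9 turned to lower. Of 1108 lower genes 252 kept it and 0 turned. The correction also added 114 higher and 324 lower genes that had not been called alike as counted. Both comparisons share the CD47-KO libraries, so holding against both is not independent evidence. Of the 792 held genes, 290 stayed held in all 21 other settings tried, among them the fit without each of the 9 libraries. These were 241 of the higher genes (44.6%) and 49 of the lower genes (19.4%). Of 100 genes named by a fixed rule 63 were held, and for all 63 the CD47-KO and exercise libraries did not overlap in CPM. A lack of overlap therefore does not set single held genes or lists apart.

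Held higher genes still came from longer transcripts poor in G and C, with a median GC content of 43.8% and a median length of 4450 bases. Held lower genes had 50.7% and 1464 bases, and all genes tested 50.1% and 2715 bases. In the decile poorest in G and C 15.1% of genes were held higher, and 0 in the 2 richest deciles. The GC-corrected calls alone reached 15.1% higher and 11.9% lower in the poorest decile, against 2.12% in each direction in the richest. In the poorest decile 0.481% of genes were lower as counted against both sets, so few there could be held lower. In the 2 richest deciles 0 were higher as counted, so 0 could be held higher. For lists poor in G and C, a held lower count of 0 is therefore largely set by the definition. Length behaved differently between the sets: rho with transcript length was -0.02 against exercise 1 to 3 and 0.44 against exercise 4 to 6 after the GC correction. With length corrected as well, 701 genes were held, of which 627 were among the 792. Protein-coding genes made up 506 of the held higher genes, 3.59% of 14084 tested. Processed pseudogenes made up 76 of the held lower genes, 5.35% of 1421 tested, against 1.14% of protein-coding genes. Reads of a pseudogene and of its parent gene may not be told apart.

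Cd47 itself had 11.5, 12.1 and 12.1 CPM in the 3 CD47-KO libraries. In exercise, in the order of the numbers, it had 10.8, 13.4, 11.8, 14.3, 15.7 and 14.3 CPM. The range of CD47-KO lay within that of exercise 1 to 3 and below that of exercise 4 to 6, and the means were 11.9 ± 0.356 (SD, n = 3) and 13.4 ± 1.81 (SD, n = 6). As counted, the log2 fold change was -0.01 (SE 0.16, adjusted p = 0.970) and -0.31 (SE 0.16, adjusted p = 0.163) against the sets. GC-corrected, it was -1.14 (SE 0.23, adjusted p = 0.00501) and -1.22 (SE 0.23, adjusted p = 0.00223). By an exact permutation of the 9 labels (84 arrangements, two-sided), the difference of -0.16 as counted had p = 0.238. The GC-corrected difference of -1.17 in log2-CPM had an exact permutation p of 0.0119, the smallest this design allows, with 2.77 to 2.83 in CD47-KO and 3.77 to 4.2 in exercise. At the GC content of Cd47 the correction lowers every CD47-KO library relative to every exercise library. A gene of that GC content with level counts could reach the same p-value, so it does not test Cd47 apart from the correction.

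Cd47 has a transcript GC content of 42.2%, where most genes were higher in CD47-KO. Among 662 genes within 1 percentage point of it, the median fold change as counted was 1.00 and 0.92 against the sets, and 47 (7.1%) and 52 (7.85%) lay below Cd47. Of the same genes, 80 (12.1%) were lower against both sets GC-corrected, as Cd47 was. The size of the difference and its call depended on the correction and on the transcript that gives the GC content. With the median over all transcripts of the gene (46.2%), the fold change was -0.44 (adjusted p = 0.165) and -0.70 (adjusted p = 0.0236). The labels do not say which part of the gene is deleted, and the counts are for the whole gene, so CD47-KO is used below as a label.

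**Figure D3:**
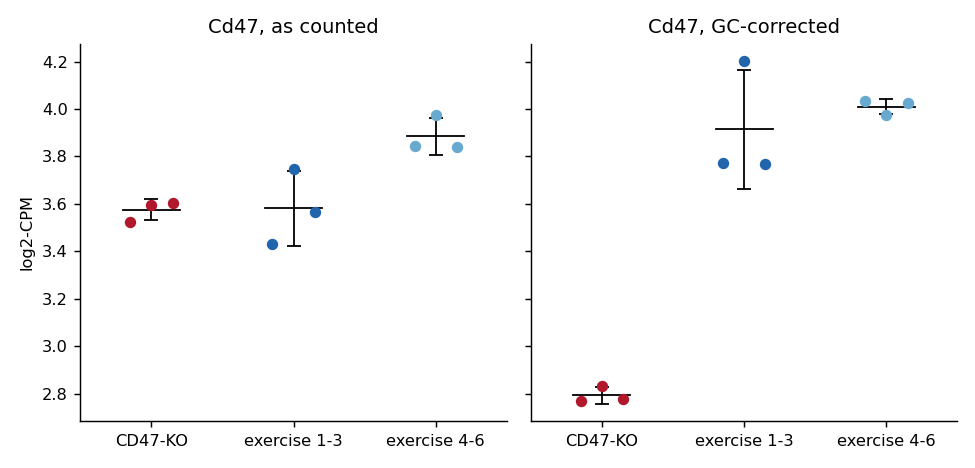
Cd47 in log2-CPM (vertical axis) in each CD47-KO, exercise 1 to 3 and exercise 4 to 6 library (points), as counted on the left and GC-corrected on the right, with group means and SD (lines and bars, n = 3 each). As counted, CD47-KO overlaps exercise 1 to 3 and lies below exercise 4 to 6. Once corrected, CD47-KO lies below both sets, at 2.77 to 2.83 against 3.77 to 4.2.

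The partners of CD47 and the nitric oxide pathway gave no held gene, 0 of 11 and 0 of 14 tested. Cd47 was the only one of these 25 genes called alike against both sets GC-corrected. Sirpa, the phagocyte receptor for CD47, had 6.25, 6.22 and 3.72 CPM in CD47-KO and 2.38 to 7.75 in exercise, with overlapping groups and GC-corrected differences of 0.31 (SE 0.38) and 0.65 (SE 0.38). Thbs1, the ligand thrombospondin 1, split by exercise set: it had 8.90, 16 and 12.9 CPM in CD47-KO, 15.2, 16.6 and 12.9 in exercise 1 to 3, and 1.55, 3.22 and 4.81 in exercise 4 to 6. It was higher against exercise 4 to 6 only (2.08, SE 0.53, adjusted p = 0.0139), and the difference between the sets was itself called (-2.21, adjusted p = 0.0165). Thbs2, a related ligand, was likewise higher against exercise 4 to 6 (1.42, SE 0.43, adjusted p = 0.0312), with a set difference of -1.16 that did not pass (adjusted p = 0.0906). Itgav, an integrin chain, went the other way, higher against exercise 1 to 3 (1.92, SE 0.35, adjusted p = 0.00232) and at 0.65 (adjusted p = 0.197) against 4 to 6. Cd36, the fatty acid and thrombospondin receptor, was higher against both sets as counted (2.35 and 0.96), and the corrected values were 0.47 (adjusted p = 0.323) and -0.44 (adjusted p = 0.314). The values of Thbs3, Thbs4, Itgb3, Itga4 and Itgb1 missed the threshold against both sets GC-corrected.

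Among the nitric oxide synthases, Nos1, the neuronal form of muscle fibres, had 53.0, 27.7 and 56.6 CPM in CD47-KO, 101 to 124 in exercise 1 to 3 and 24.6 to 43.9 in exercise 4 to 6. Its GC-corrected differences were -0.88 (adjusted p = 0.0999) and 0.74 (adjusted p = 0.137), and the sets differed by -1.62 (adjusted p = 0.00757). Nos2, the inducible form, had 1.24, 0.963 and 0.511 CPM against 1.74 to 4.56 in exercise, without overlap. It was lower as counted (-1.64 and -1.37), and missed the threshold corrected (-1.24, adjusted p = 0.0519, and -0.96, adjusted p = 0.105). Nos3, the endothelial form, had corrected values of -0.54 (adjusted p = 0.236) and -0.27 (adjusted p = 0.558). The caveolins that bind these enzymes gave -0.37 and -0.50 for Cav3, the muscle form, and 0.59 and 0.01 for Cav2, with adjusted p-values of 0.135 or more. The subunits of soluble guanylate cyclase (Gucy1a1, Gucy1a2, Gucy1b1), the kinase Prkg1, the phosphodiesterase Pde5a, Cav1, Nosip, Vegfa and Kdr missed the threshold against both sets GC-corrected.

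The AMPK list held 1 higher (4.55%) and 2 lower (9.09%) genes of 22 tested, against 3.01% and 1.41% of all genes. All 3 belong to the LKB1 complex that phosphorylates AMPK. Cab39, the scaffold MO25α, was higher, with 300.5, 306.9 and 366.2 CPM in CD47-KO against 88.8 to 130.1 in exercise and 66.7 to 156.9 in sedentary libraries. Its GC-corrected fold change was 1.15 (SE 0.17, adjusted p = 0.000732) and 1.02 (SE 0.17, adjusted p = 0.00105). Stradb, a pseudokinase partner of LKB1, was lower, with 53.6, 49.2 and 62.3 CPM against 105 to 125 (-1.26, SE 0.14, adjusted p = 7.03e-05, and -1.19, SE 0.14, adjusted p = 6.90e-05). Strada, its paralog, had 6.63, 5.91 and 6.08 CPM against 8.22 to 11.3 (-2.25, SE 0.22, and -1.88, SE 0.22). The CPM of Strada lie closer together than these corrected values, so part of their size comes from the GC correction. Strada was not held without CD47-KO 3 or without exercise 2, 4 or 6, nor with the median GC content over transcripts. Stk11, which encodes LKB1, had 81.1, 57.7 and 61.5 CPM against 68.5 to 103, with overlap (0.15, SE 0.19, and 0.33, SE 0.19).

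The catalytic subunits of AMPK were not held. Prkaa1 had 14.3, 16.2 and 14.5 CPM in CD47-KO, 3.19 to 4.50 in exercise 1 to 3 and 6.83 to 8.71 in exercise 4 to 6. It was called as counted (1.94 and 0.95), and its transcript GC content is 40.1%. GC-corrected, Prkaa1 had 0.40 (adjusted p = 0.194) and -0.23 (adjusted p = 0.441). Prkaa2, the main form of muscle fibres, had 285, 236 and 390 CPM against 104 to 214, without overlap, and corrected values of -0.46 (adjusted p = 0.448) and 0.24 (adjusted p = 0.692). The regulatory subunits Prkab1 (0.41 and 0.01) and Prkag3 (-0.41 and -0.27) also missed the threshold.

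Of 23 regulators of mitochondrial biogenesis, 3 were held higher (13%, against 3.01% of all genes) and 0 lower. Sirt1, a deacetylase of PGC-1α, had 12.7, 13.3 and 13.3 CPM in CD47-KO against 1.79 to 4.77 in exercise and 1.94 to 5.55 in sedentary libraries. The corrected fold change of Sirt1 was 2.05 (SE 0.19) against exercise 1 to 3 and 1.11 (SE 0.19) against 4 to 6, and the sets differed by 0.94 (adjusted p = 0.00651). Gabpa, the DNA-binding subunit of NRF-2, had 41.6, 45.0 and 50.5 CPM against 6.39 to 15.5 (1.24, SE 0.19, and 0.96, SE 0.19). Yy1, a transcription factor that works with PGC-1α, had 51.5, 44.2 and 53.3 CPM against 29.4 to 39.0 (0.92, SE 0.14, and 0.62, SE 0.14). The call of Yy1 was lost without CD47-KO 1 or 3, without exercise 4 or 6, with length corrected and with the median GC content over transcripts.

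Nuclear genes of the respiratory chain moved the opposite way, in most members against exercise 4 to 6 and in fewer against exercise 1 to 3. GC-corrected, 6 of 37 complex I genes were lower against exercise 1 to 3 (list median -0.44) and 27 against exercise 4 to 6 (list median -1.03). In complexes III to V these counts were 3 and 20 of 34. Over all genes, 6.33% were lower against exercise 1 to 3 and 8.8% against exercise 4 to 6. In the decile of shortest transcripts, the GC-corrected medians against the sets were -0.12 and -0.51. The part of transcript length in the counts against each set was not tested. Complex I held 0 higher and 3 lower genes (8.11% lower, against 1.41% of all genes). As counted, 0 were higher and 13 lower against both sets, where 9.68% and 6.19% of all genes were. Complexes III to V held 0 higher and 2 lower (5.88% lower). With length corrected as well, 6 genes of complex I and 3 of complexes III to V were held lower. The 2 genes of complexes III to V, Atp5g1 and Atp5g3, fell to 0 without CD47-KO 1 or 3 or without exercise 1, to 1 without CD47-KO 2 or exercise 2, and the count was 9 when only the 9 libraries were fitted. Ndufb6, an accessory subunit of complex I, had 29.4, 33.5 and 27.4 CPM against 56.5 to 92.1 (-1.09, SE 0.26, and -1.66, SE 0.27). Ndufa9, another accessory subunit, had 165, 173 and 142 CPM against 233 to 334 (-0.77, SE 0.19, and -1.11, SE 0.19). The 3 complex I genes fell to 0 without CD47-KO 3 or without exercise 1, and rose to 15 when only the 9 libraries were fitted. Mitochondrial ribosomal proteins held 0 higher and 4 lower of 77 (5.19% lower, against 1.41% of all genes). They held 0 in either direction without CD47-KO 1 or 3 or without exercise 1 or 2, and 2 lower without any other single library. GC-corrected, 11 of these ribosomal genes were lower against exercise 1 to 3 and 38 against exercise 4 to 6. The set difference was called for 30, all higher in exercise 4 to 6, where 5.29% of all genes were. The tricarboxylic acid cycle held 0 of 21. Its corrected calls were 2 higher and 0 lower against exercise 1 to 3, and 0 higher and 8 lower against exercise 4 to 6. Fatty acid oxidation held 1 of 31 (3.23%, against 3.01% of all genes held higher).

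Acot2, the mitochondrial acyl-CoA thioesterase, was that one gene. It had 188, 213 and 202 CPM in CD47-KO, 31.8, 20.1 and 16.4 in exercise 1 to 3 and 82.8, 89.3 and 95.1 in exercise 4 to 6. All 3 CD47-KO libraries lay above every exercise library and above the sedentary range of 19.1 to 59.3. Its corrected fold change was 3.53 (SE 0.26, adjusted p = 4.43e-06) and 1.57 (SE 0.24, adjusted p = 0.000480), and the sets differed by 1.96 (adjusted p = 0.000362). Acot2 was held in all 21 settings.

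Genes encoded by the mitochondrial genome were higher as counted against both sets in 6 of 15, where 9.68% of all genes were. Their median fold change as counted was 1.91 and 1.02, and their median GC content 36.0%. GC-corrected, the medians were -0.52 and -0.51, and 1 of 15 was held higher (6.67%, against 3.01% of all genes). By the GC-corrected calls alone, 1 was higher and 2 were lower against both sets. As counted 0 were lower against both sets, so 0 could be held lower. mt-Nd5, a complex I core subunit, had 11080, 9892 and 13020 CPM against 1724 to 3893, and its fold change moved from 2.59 and 1.73 to 0.45 (adjusted p = 0.346) and 0.18 (adjusted p = 0.723). mt-Nd4l, the held gene, had 2369, 2143 and 2550.0 CPM against 325 to 720 (1.30, SE 0.29, and 0.92, SE 0.29), and lost its call without any single library but exercise 1. The direction of this group flips with the correction, and less RNA per cell and fewer cells of a type cannot be told apart in bulk muscle.

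Of 32 genes of fasting and atrophy 9 were held higher and 0 lower, against 3.01% and 1.41% of all genes tested. The median corrected fold change of the list was 0.60 and 0.80, against -0.03 and 0.07 over all genes. Ubiquitin ligases that mark muscle protein for breakdown were among them. Trim63, which encodes MuRF1, had 2252, 1886 and 3294 CPM in CD47-KO against 484 to 1050.0 in exercise and 310 to 900 in sedentary libraries (1.77, SE 0.39, adjusted p = 0.00847, and 2.55, SE 0.40, adjusted p = 0.000665). Fbxo32, which encodes atrogin-1, had 2360.0, 2195 and 3913 CPM against 529 to 1233 (1.12, SE 0.33, and 1.79, SE 0.33). Foxo3, a transcription factor that drives both ligases, had 61, 63.2 and 93.1 CPM against 29.2 to 51.5 (1.09, SE 0.20, and 1.5, SE 0.20). No exercise library reached the lowest CD47-KO library for these 3 genes.

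Fbxo30, the ligase MUSA1, had 26.7, 33.6 and 49.0 CPM against 1.97 to 7.01 (1.69, SE 0.24, and 1.18, SE 0.23). Pdk4, the kinase that shuts pyruvate dehydrogenase when glucose is scarce, had 4130.0, 5248 and 5800.0 CPM against 1142 to 2111 (1.45, SE 0.27, and 0.99, SE 0.27). Stress-response members were held as well: Sesn1, a sestrin that restrains mTORC1 under amino acid shortage, had 61.4, 78.2 and 209 CPM against 18 to 31. CD47-KO 3 stood far above the other CD47-KO libraries there, and all 3 lay above the exercise and the sedentary range of 12.0 to 29.1. The corrected fold change of Sesn1 was 2.68 (SE 0.36, adjusted p = 0.000323) and 2.19 (SE 0.36, adjusted p = 0.000797).

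Gadd45a, a growth-arrest gene induced in atrophying fibres, had 35.1, 34.5 and 80.2 CPM against 8.32 to 19.2 (2.07, SE 0.37, and 1.69, SE 0.37). Cebpd, a transcription factor of the glucocorticoid and acute-phase response, had 135, 127 and 246 CPM against 43.3 to 46.5 in exercise 1 to 3 and 16.6 to 28.6 in exercise 4 to 6. The corrected fold change of Cebpd was 2.19 (SE 0.27) and 3.13 (SE 0.28), and the sets differed (-0.95, adjusted p = 0.0294). CD47-KO 3 was the highest library for Trim63, Fbxo32, Foxo3, Fbxo30, Pdk4, Sesn1, Gadd45a and Cebpd. The count fell from 9 to 4 without CD47-KO 3 and to 5 without exercise 1. Sesn1, Gadd45a, Fbxo30 and Cebpd stayed held without any single library, while Trim63 was lost without CD47-KO 3 or exercise 1. Foxo3 was lost without CD47-KO 3 or without exercise 1 or 3, Pdk4 without CD47-KO 2 or 3 or exercise 4 or 5, and Fbxo32 without CD47-KO 1 or 3 or any of exercise 1 to 4. Ctsl, the lysosomal protease cathepsin L, was lost without any one of the 9 libraries.

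**Figure D4:**
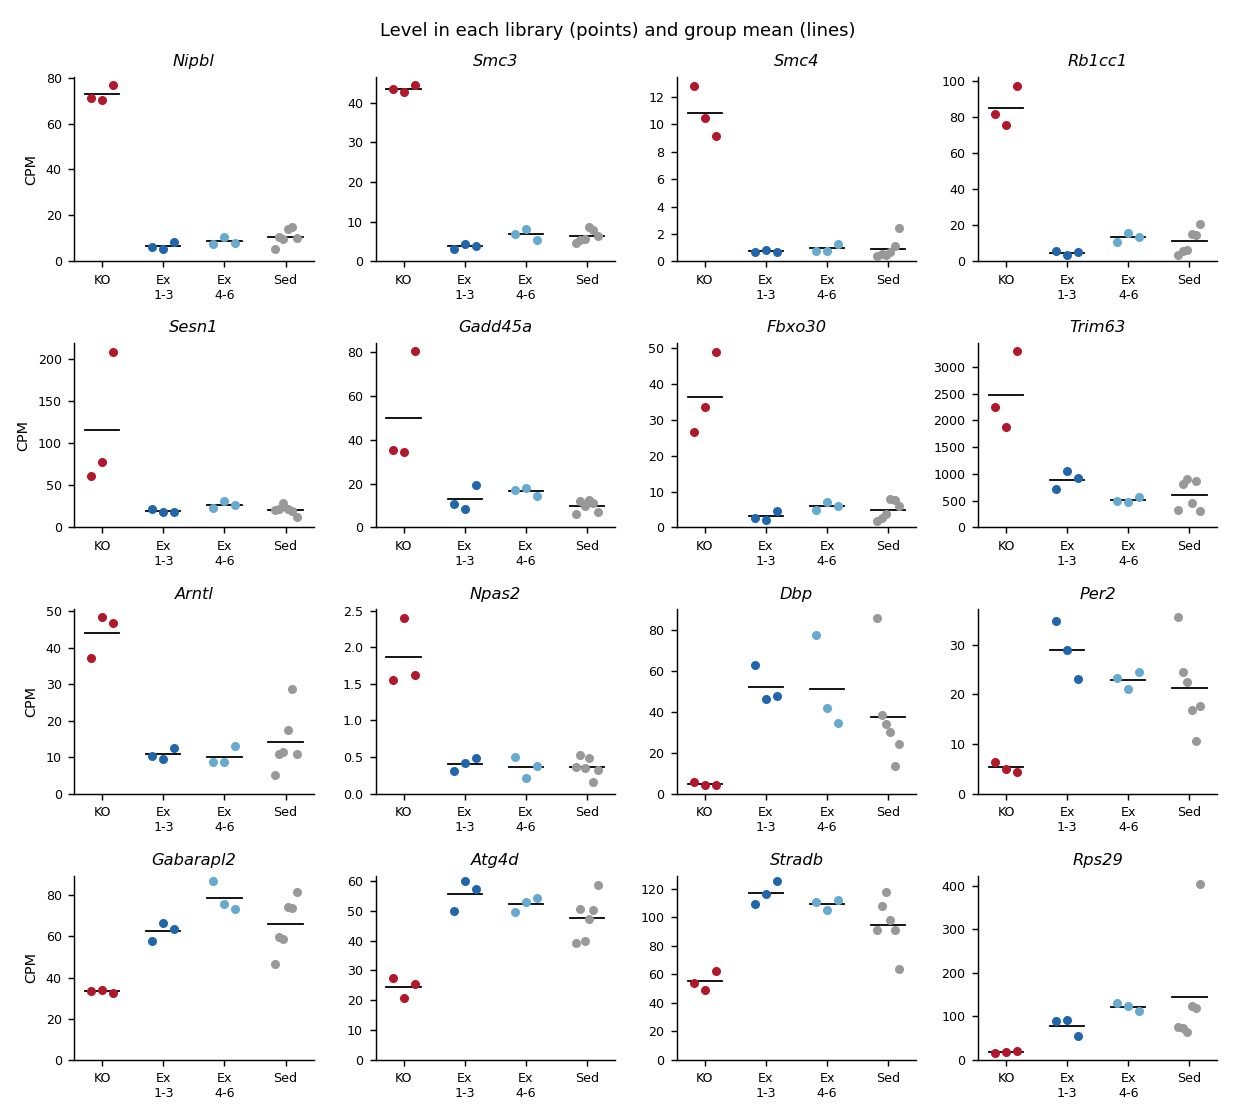
Level in CPM (vertical axis, linear from 0) of 16 genes in each CD47-KO (KO), exercise 1 to 3, exercise 4 to 6 (Ex) and sedentary (Sed) library (points), with group means (lines). For every gene shown the CD47-KO points lie outside the exercise points, for example at 70.4 to 76.6 against 5.11 to 10.6 for Nipbl and at 4.12 to 5.78 against 34.5 to 77.8 for Dbp. All 63 held genes named by rule had this separation, so it does not set the genes shown apart.

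The circadian clock held genes in both directions, 3 higher and 3 lower of 21 (14.3% each, against 3.01% and 1.41% of all genes). The higher genes were the activators of the core loop. Arntl, which encodes BMAL1, had 37.2, 48.3 and 46.8 CPM in CD47-KO against 8.70 to 13.0 in exercise and 5.18 to 28.6 in sedentary libraries (1.91, SE 0.30, adjusted p = 0.000924, and 1.96, SE 0.30, adjusted p = 0.000514). Npas2, a partner of BMAL1, had 1.56, 2.41 and 1.63 CPM against 0.217 to 0.495 (2.49, SE 0.49, and 2.65, SE 0.49). Clock, the other partner, had 24.7, 35.9 and 36.2 CPM against 3.36 to 7.29 (1.49, SE 0.34, and 1.09, SE 0.33). Clock lost its call without CD47-KO 2 or 3, without exercise 2, 4, 5 or 6, and with length corrected.

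The lower genes are targets that the loop switches on. Dbp, an output transcription factor, had 5.78, 4.42 and 4.12 CPM in CD47-KO against 34.5 to 77.8 in exercise and 13.5 to 86.2 in sedentary libraries. Its corrected fold change was -2.87 (SE 0.37, adjusted p = 0.000240) and -2.90 (SE 0.38, adjusted p = 0.000168). Per2, a repressor of the loop, had 6.46, 5.03 and 4.29 CPM against 21 to 34.9 (-2.04, SE 0.23, and -1.70, SE 0.23). Bhlhe41, the repressor DEC2, had 20.04, 10.5 and 13.9 CPM against 25.7 to 33.3 (-1.20, SE 0.21, and -1.12, SE 0.21), and was lost without CD47-KO 3. For these 3 genes and the activators, the CD47-KO and exercise libraries did not overlap, as was so for all 63 held genes named by rule.

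Other clock genes differed between the exercise sets. Per1 had 92.9, 56.2 and 79.6 CPM in CD47-KO, 193, 218 and 199 in exercise 1 to 3, and 80.6, 72.0 and 51.8 in exercise 4 to 6. It was lower against the first set (-0.87, SE 0.22, adjusted p = 0.0155) and higher against the second (0.66, SE 0.21, adjusted p = 0.0465). Ciart, a clock repressor, was lower against exercise 1 to 3 (-2.20, SE 0.34) and at -0.65 (adjusted p = 0.196) against 4 to 6. Nr1d2, which encodes REV-ERBβ, was higher against exercise 1 to 3 (0.80, SE 0.15) and at -0.10 (adjusted p = 0.708) against 4 to 6. The set differences of Per1 (-1.53), Ciart (-1.55) and Nr1d2 (0.89) all passed, with adjusted p of 0.000903, 0.00956 and 0.00185. Nr1d1 and Cry2 missed the threshold in every contrast, with corrected values of 0.21 and 0.18 for Nr1d1 and 0.07 and 0.39 for Cry2. The labels used here give no time of day for the sampling.

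The list of chromosome cohesion and condensation had the largest share of held genes, 11 of 21 higher (52.4%) and 0 lower. Over all genes tested, 3.01% were held higher. In the decile poorest in G and C the share was 15.1%, and in the next decile 10.7%. It holds genes of cohesin, condensin and the SMC5/6 complex, ring-shaped complexes that hold or fold DNA, and its median GC content was 42.4%. The median fold change of the list was 1.74 and 1.64 as counted, and 0.85 and 0.96 GC-corrected. Nipbl, which loads cohesin on DNA, had 71.0, 70.4 and 76.6 CPM in CD47-KO against 5.11 to 10.6 in exercise and 5.38 to 14.8 in sedentary libraries (2.42, SE 0.18, adjusted p = 4.43e-06, and 2.19, SE 0.18, adjusted p = 1.04e-05). Smc3, a cohesin ring subunit, had 43.5, 42.5 and 44.3 CPM against 2.98 to 8.24 (2.44, SE 0.18, and 1.78, SE 0.18), with a set difference of 0.66 (adjusted p = 0.0258). Smc1a, its partner in the ring, had 40.3, 39.8 and 40.1 CPM against 13.2 to 20.03 (0.88, SE 0.16, and 1.11, SE 0.17).

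Stag2, a further cohesin subunit, had 107, 90.6 and 109 CPM against 6.43 to 19.5 (1.54, SE 0.33, and 1.39, SE 0.32). Smc5 and Smc6, the core of the SMC5/6 complex, had 24.5 to 26.2 against 2.06 to 3.85 CPM, and 26.9 to 30.4 against 2.69 to 5.26 CPM. Their corrected fold changes were 1.51 and 1.57 for Smc5 and 1.44 and 1.48 for Smc6. Smc4, a condensin subunit, had 12.8, 10.5 and 9.19 CPM against 0.662 to 1.29 (2.35, SE 0.46, and 2.34, SE 0.45), and Ncapd3, of condensin II, 15.8, 13.4 and 18.2 CPM against 6.05 to 8.20 (0.79, SE 0.16, and 0.96, SE 0.16). Without single libraries, 9 or 10 members stayed held, and 10 with length corrected. Smc2, Stag1, Rad21, Pds5b and Wapl were among the 10 members that were not held.

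RNA splicing factors, which are also poor in G and C (median 43.6%), were higher against both sets in 23 of 40 as counted. Over all genes this share was 9.68%, and in the decile from 42.22 to 44.65% GC content 37.3%. Of the splicing factors 8 (20%) were held higher and 0 lower, against 3.01% held higher of all genes. By the GC-corrected calls alone, 9 were higher and 1 was lower against both sets. In the decile of genes from 42.22 to 44.65% GC content, 10.7% were held higher. Mbnl1, a muscleblind protein that sets adult splicing in muscle, had 360, 113 and 251 CPM against 5.96 to 30.4 (2.92, SE 0.56, adjusted p = 0.00364, and 2.66, SE 0.56, adjusted p = 0.00409). Hnrnph1 had 111, 92.5 and 86.2 CPM against 24.1 to 33.9 (1.32, SE 0.15, and 1.17, SE 0.15), and Hnrnpa1 194, 196 and 172 CPM against 58.6 to 89.0 (0.85, SE 0.16, and 1.11, SE 0.16). Both encode nuclear ribonucleoproteins that bind pre-mRNA. Hnrnpa1 was lost with the median GC content over transcripts. The count of 8 fell to 3 without CD47-KO 1 or 2 or without exercise 2, and to 4 without CD47-KO 3 or exercise 3, and was 14 when only the 9 libraries were fitted.

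Of the genes with the largest corrected differences, several others stood far apart. Ppp1r12a, the targeting subunit of myosin phosphatase, had 51.3, 51.4 and 53.9 CPM against 3.06 to 7.69 (2.69, SE 0.33, and 3.17, SE 0.34). Bod1l, which protects replication forks, had 73.5, 72.7 and 88.3 CPM against 4.15 to 11.5 (3.04, SE 0.28, and 2.64, SE 0.28). Nol8 and Esf1, nucleolar proteins of ribosome assembly, had 28.5 to 31.9 against 1.75 to 3.27 CPM, and 35.5 to 42.9 against 1.85 to 4.04 CPM. Micu3, which tunes calcium uptake by mitochondria, had 19.7, 16 and 20.03 CPM against 1.33 to 5.09 (2.91, SE 0.62, and 2.65, SE 0.61), and was lost with the median GC content over transcripts. Erbin, a scaffold of ERBB2, had 93.8, 138 and 253 CPM against 6.13 to 12.4 (2.51, SE 0.61, and 2.89, SE 0.62), and was lost without CD47-KO 3 or exercise 1 or 2.

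On the lower side, Nmrk2, a muscle kinase of NAD+ synthesis, had 13.9, 17.6 and 13.0 CPM against 45.1 to 119 (-2.80, SE 0.53, adjusted p = 0.00328, and -2.13, SE 0.52, adjusted p = 0.0104). It was lost without exercise 4. Fam78a had 0.740, 0.779 and 1.64 CPM against 6.31 to 10.4 (-2.52, SE 0.47, and -2.42, SE 0.47), and kept its call in all 21 settings. Rpl22l1, a ribosomal protein paralog, had 6.20, 7.92 and 9.36 CPM against 16.6 to 19.9 (-2.77, SE 0.31, and -2.34, SE 0.31), and was lost without CD47-KO 1. Mylk4, a kinase of the myosin light chain kinase family, had 620.5, 367 and 683 CPM against 1439 to 3915 (-3.12, SE 0.49, and -1.94, SE 0.46). Sem1, a small proteasome subunit, had 21.1, 21.7 and 19.2 CPM against 28.6 to 52.8 (-2.93, SE 0.33, and -2.80, SE 0.33). For Rpl22l1 and Sem1 the CPM lie closer together than these corrected fold changes, so part of the size comes from the GC correction. Mylk4 lost its call without any single library, and Sem1 without any but exercise 3.

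Structural noncoding RNAs held 0 higher and 4 lower of 9 (44.4% lower, against 1.41% of all genes). Rn7s1, an RNA of the signal recognition particle, had 2.39, 2.56 and 1.94 CPM in CD47-KO against 56.3, 425, 129, 72.5, 87.0 and 32.9 in the exercise libraries in order of number. Its corrected fold change was -5.85 (SE 0.78) and -4.30 (SE 0.73). Rn7s2, a near-identical copy, had 1.99 to 2.51 against 5.40 to 417 CPM, and reads of the copies cannot be told apart. Rn7sk, the 7SK RNA that holds back transcription elongation, had 0.804, 0.218 and 0.348 CPM against 1.91 to 33.7, and Rpph1, the RNA of RNase P, 0, 0.0573 and 0 against 0.313 to 7.99. Exercise 2 was the highest exercise library for all 4, as it was for the clone symbols. These short RNAs carry no poly(A) tail, and whether the libraries were selected for poly(A) is not given in the sources used here. With limma-voom 1 of the 4 was held, and 2 with length corrected or without CD47-KO 2, CD47-KO 3 or exercise 5.

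**Figure D5:**
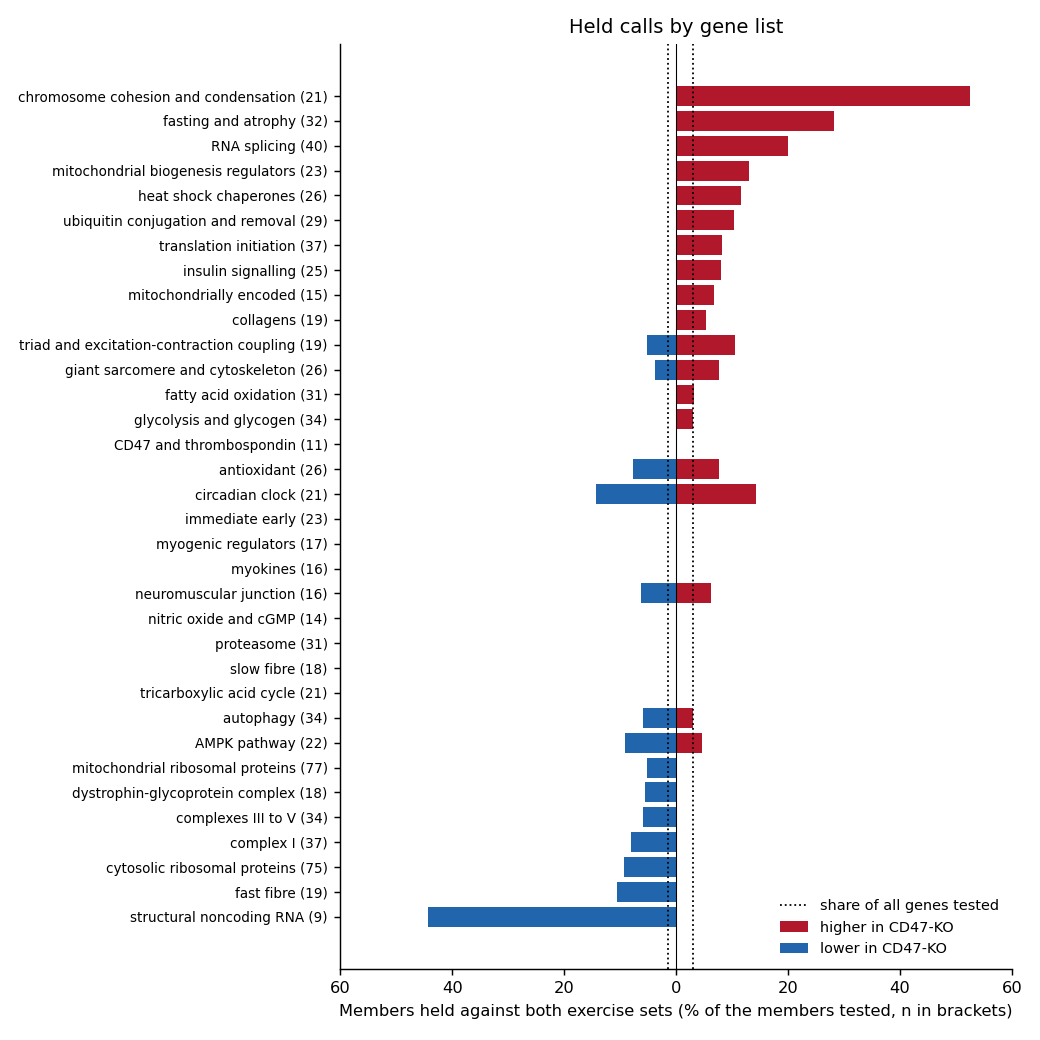
Share of the members tested (horizontal axis, %) held higher (right) or lower (left) in CD47-KO for each of 34 gene lists, with the number tested in brackets and the shares of all genes tested, 3.01% and 1.41%, as dotted lines. Chromosome cohesion (11 of 21) and fasting and atrophy (9 of 32) reach farthest to the right, and structural noncoding RNA (4 of 9) farthest to the left. The dotted lines are not matched to the GC content of each list.

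Autophagy held 1 higher (2.94%) and 2 lower (5.88%) genes of 34, against 3.01% and 1.41% of all genes tested. Its higher share was near that of all genes. The counts were the same without any single library, and 3 and 2 when only the 9 libraries were fitted or with the median GC content over transcripts. Rb1cc1, which encodes FIP200 of the initiating ULK1 complex, had 81.4, 75.6 and 97.2 CPM against 3.59 to 5.50 in exercise 1 to 3 and 10.6 to 15.6 in exercise 4 to 6. Its corrected fold change was 2.40 (SE 0.19) and 1.38 (SE 0.19), with a set difference of 1.02 (adjusted p = 0.00379). Gabarapl2, an ATG8-like protein of the growing membrane, had 33.6, 33.9 and 32.6 CPM against 57.8 to 86.8 (-1.41, SE 0.16, and -1.70, SE 0.16). Atg4d, a protease that processes such proteins, had 27.3, 20.8 and 25.4 CPM against 49.6 to 59.8 (-0.76, SE 0.16, and -0.66, SE 0.16). The groups did not overlap for any of the 3, nor for any of the 63 held genes named by rule.

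Chaperones held 3 higher (11.5%, against 3.01% of all genes) and 0 lower of 26. Hsp90b1, the endoplasmic reticulum form of HSP90, had 104, 105 and 97.5 CPM against 26.4 to 39.7 (0.90, SE 0.14, and 0.92, SE 0.14). Hspd1, the mitochondrial HSP60, had 239, 266 and 230 CPM against 100.4 to 152 (0.81, SE 0.16, and 0.71, SE 0.16). Hsp90aa1, the stress-inducible cytosolic form, had 69.3, 65.5 and 51.0 CPM against 11.4 to 17.4 (1.48, SE 0.35, and 1.41, SE 0.35), and was lost without exercise 2 or 4. Antioxidant genes held 2 in each direction of 26 (7.69% each, against 3.01% higher and 1.41% lower of all genes). The lower count was 0 or 1 without any single library. Nfe2l2, which encodes NRF2, had 164, 129 and 124 CPM against 49.7 to 66.3 (1.08, SE 0.18, and 0.95, SE 0.18), and Gclc, the rate-limiting enzyme of glutathione synthesis and a target of NRF2, 22.7, 25 and 27.6 CPM against 10.3 to 13.2 (1.08, SE 0.15, and 0.87, SE 0.15). Txn1, thioredoxin 1, was lower (-0.74, SE 0.20, and -1, SE 0.20), and this call was lost without any single library but CD47-KO 3.

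In protein synthesis, cytosolic ribosomal proteins held 0 higher and 7 lower genes of 75 (9.33% lower, against 1.41% of all genes). Translation initiation factors held 3 higher and 0 lower of 37 (8.11% higher, against 3.01% of all genes). By the GC-corrected calls alone, 3 of these factors were higher and 2 lower against both sets. Rps29 had 16.1, 17.8 and 19.6 CPM against 54.0 to 130.5 (-1.77, SE 0.39, and -2.42, SE 0.39), Rps27 28.9, 23.9 and 14.0 CPM against 59.5 to 107, and Rps3 107, 112 and 99.6 CPM against 188 to 250. Ribosomal protein genes have many near-identical processed pseudogenes, and counting may split their reads. The ribosomal protein count fell to 3 without exercise 2 and to 4 without CD47-KO 1 or 3, and was 26 when only the 9 libraries were fitted. Eif3a, the large subunit of the initiation factor eIF3, had 392, 357 and 402 CPM against 53.5 to 111 (1.35, SE 0.18, and 2.14, SE 0.18). Eif3j1, a loosely bound eIF3 subunit, had 322, 262 and 327 CPM against 55.9 to 88.7 (1.17, SE 0.19, and 1.04, SE 0.19). Cul4b, a ubiquitin ligase scaffold, had 14.8, 16.4 and 18.4 CPM against 1.14 to 2.49 (2.22, SE 0.34, and 1.82, SE 0.33). The ubiquitin list had 17 of 29 higher as counted against both sets, where 9.68% of all genes were. It held 3 higher (10.3%), and 1 without CD47-KO 3 or exercise 1 or 2. By the GC-corrected calls alone, the list had 3 higher and 2 lower against both sets. Its median GC content was 44.1%, and 10.7% of genes in the decile around that value were held higher.

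Of the contractile lists, slow fibre genes held 0 of 18, and fast fibre genes 0 higher and 2 lower of 19 (10.5% lower, against 1.41% of all genes). The fast fibre count fell to 0 without any one CD47-KO library, without exercise 4 and with length corrected, and to 1 without any other exercise library. The triad list held 2 higher (10.5%, against 3.01% of all genes) and 1 lower (5.26%) of 19, and the giant sarcomere list 2 higher (7.69%) and 1 lower (3.85%) of 26. Without CD47-KO 3 or without exercise 1 or 2, each of these lists held 1 higher gene, as the giant sarcomere list did without exercise 6. The lower gene of the triad list, Fkbp1a, was lost without 6 of the 9 libraries in turn, and that of the giant sarcomere list, Synpo2l, without CD47-KO 1 or 3 or exercise 4 or 5. Trdn, which encodes triadin of the calcium release complex, had 1789, 1474 and 1558 CPM against 56.5 to 153 (2.42, SE 0.20, adjusted p = 6.89e-06, and 2.05, SE 0.19, adjusted p = 2.49e-05). Neb, the thin filament ruler nebulin, had 5862, 5204 and 7839 CPM against 1528 to 2756 (1.28, SE 0.34, and 1.37, SE 0.34). Xirp2, an actin-binding protein of the Z-disc and intercalated disc region, had 2664, 2681 and 3340.0 CPM against 193 to 660 (2.29, SE 0.38, and 1.65, SE 0.37). Neb and Xirp2 have very long transcripts and lost their calls with length corrected, and Neb also without CD47-KO 3 or exercise 1, 2 or 6. Mylpf, the fast regulatory light chain, had 3753, 3174 and 3714 CPM against 7898 to 11010 (-1.27, SE 0.27, and -0.98, SE 0.27), and lost its call without any CD47-KO library, without exercise 4 and with length corrected.

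Cell type markers were checked beside these results. The 8 muscle fibre markers summed to 104700 to 140700 CPM in CD47-KO and 140700 to 239400 in exercise, with 0 of 8 held. Mural cell markers summed to 542.5 to 602 CPM in CD47-KO, above the 327 to 457 of exercise, with 0 of 9 held. Endothelial (380 to 514 against 338 to 585), macrophage (47.65 to 66.2 against 25.5 to 69.9) and adipocyte markers (612 to 817 against 465 to 901) overlapped, with 0 held of 11, 10 and 8. Erythroid markers summed to 173 to 284 against 254 to 1236, and tendon and cartilage markers to 64.6 to 99.7 against 32.4 to 290. Of these and the Schwann, fibroblast, satellite cell and neutrophil lists 0 genes were held. Cd3e, a T cell gene, was held lower at 0.0458 to 0.0510 against 0.191 to 1.06 CPM, and was lost without any single library. The part of cell makeup in the results was not tested.

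Many calls held against 1 set only. GC-corrected, 3139 genes were called against exactly 1 set, and for 1365 of them the difference between the exercise sets was itself called. The set difference is the difference of these same 2 comparisons, so choosing genes called against 1 set only favours such calls. Over all genes the set difference was called for 2234 (12.5%). By direction, 948 (5.29%) were higher and 1286 (7.18%) lower in exercise 4 to 6, and as counted 1012 (5.63%) and 1116 (6.21%). Igfn1, a Z-disc gene, had 25.1, 14.7 and 54.9 CPM in CD47-KO, 110, 91.7 and 936 in exercise 1 to 3, and 4.73, 30.9 and 17.3 in exercise 4 to 6. It was lower against the first set (-3.16, SE 0.93) and at 1.28 (adjusted p = 0.341) against the second. Sox4, a developmental transcription factor, had 3.39, 3.99 and 26.1 CPM in CD47-KO, 5.94 to 20.6 in exercise 1 to 3 and 0.634 to 0.818 in exercise 4 to 6, and was higher against the second set only (4.17, SE 0.86). Sox9, which drives cartilage genes, had 4.16 to 6.71, 6.73 to 18.2 and 1.14 to 1.92 CPM, and 1.82 (SE 0.51) against the second set. G0s2, an inhibitor of fat breakdown, had 1.58, 2.38 and 0.929 CPM against 1.75 to 4.61 and 7.55 to 25, and was lower against the second set only (-2.65, SE 0.55). The set differences of Igfn1, Sox4, Sox9 and G0s2 were -4.45, -4.40, -3.05 and 2.16, and each passed.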

How the data were processed

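RNA sequencing of mouse skeletal muscle gave 1 table of gene counts, which the authors deposited for 15 libraries, with 0 columns left without a sample. The submitters' processing notes list GRCm38 as the build and, as tools, HTSeq 0.6.1, HISAT2 2.0.1 and Trimmomatic 0.30. How the counting used strand is not given in the sources used here, so overlapping and antisense genes cannot be told apart.

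Counts were filtered with filterByExpr, scaled by TMM and fitted with edgeR 4.0.16 (R 4.3.3, limma 3.58.1) in a robust quasi-likelihood model with 5 cells: CD47-KO, exercise 1 to 3, exercise 4 to 6 and the same 2 sets of sedentary libraries. All 15 libraries shared 1 estimate of the spread. Standard errors (SE) came from the fold change and its F statistic. Benjamini-Hochberg adjustment ran across the genes tested, with calls at 0.05. CPM are counts scaled to library size, and log2-CPM used a prior count of 2. Fold changes are log2 values, CD47-KO minus exercise. In pairs, the first value is against exercise 1 to 3 and the second against exercise 4 to 6, and those in brackets are GC-corrected.

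The GC correction fitted, in each library, a lowess curve (span 0.3) of log2-CPM minus the gene mean on the GC content of the longest basic transcript of GENCODE M21, over genes whose mean log2-CPM reached 1, and used it as an offset. That definition of GC content was chosen after seeing the data. The curve removes any true change that follows GC content, and it adds none of its own error to the SE. The methods were tried on simulated data with the same GC trend in every CD47-KO library. GC-corrected and against both sets, they recovered 19 of 100 genes changed by 1 log2 unit and 85 of 100 changed by 2. Of 17162 unchanged genes 0 were called. The simulation had no trend with length, no difference between the exercise sets and no GC trend among exercise libraries. It therefore does not give the rate of false calls in these data.

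Genes were named by rule: the 10 largest held changes in each direction, up to 3 members of each list with at least 3 held members, Cd47 and the 2 lists around it, the 3 largest in each direction called alike as counted and against neither set GC-corrected, and the 3 largest set differences in each direction. The largest held changes were ranked by the smaller of the 2 GC-corrected fold changes, so the correction bears on that ranking. Clone names and sex-linked genes were passed over. Among the held higher genes were Ddx3y and Kdm5d of chromosome Y, which stayed held in 21 and 14 of the 21 other settings. The sex makeup of the groups was not tested. Other list members were named after their values were seen. The members and lists were chosen with earlier results of these data known. Alternatives were other filters, RLE factors, DESeq2 1.42.0, limma-voom, fits of 9 libraries or without each library, a replicate block, and other corrections.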

Additional observations from a re-analysis of the deposited data

Results flagged for a closer look

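In the exercise group of 6, a single library stood far from the others for 7 of the 100 genes named by rule and for 1 of 4 library measures, where chance would do so in about 1 group in 20. Exercise 2 was far above the rest for Rn7s1 (425 CPM, next 129), Rn7s2 (417 CPM, next 75.5), Rn7sk (33.7 CPM, next 10.1), Rpph1 (7.99 CPM, next 1.71) and the share of the clone symbols (12.3%, next 3.82%). Igfn1 reached 936 CPM in exercise 3 (next 110), G0s2 25 CPM in exercise 5 (next 9.97) and Nos2 4.56 CPM in exercise 1 (next 2.62).

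For 18 of the 100 genes named by rule, the CD47-KO contrasts against the 2 exercise sets differed, by the test of exercise 4 to 6 minus exercise 1 to 3 in the GC-corrected edgeR fit. The log2 difference was positive, so the level was higher in exercise 4 to 6, for Rpsa-ps9 (2.39, adjusted p = 0.000616), G0s2 (2.16, adjusted p = 0.0188), Rpl17 (1.96, adjusted p = 0.00422), Itgav (1.27, adjusted p = 0.0263) and Rb1cc1 (1.02, adjusted p = 0.00379). It was also positive for Sirt1 (0.94, adjusted p = 0.00651), Mrpl28 (0.76, adjusted p = 0.0194), Smc3 (0.66, adjusted p = 0.0258) and Nosip (0.51, adjusted p = 0.0272). The difference was negative for Igfn1 (-4.45, adjusted p = 0.0104), Sox4 (-4.40, adjusted p = 0.00568), Sox9 (-3.05, adjusted p = 0.00295), Thbs1 (-2.21, adjusted p = 0.0165) and Nos1 (-1.62, adjusted p = 0.00757). It was negative too for Eif5b (-1.19, adjusted p = 0.00149), Cebpd (-0.95, adjusted p = 0.0294), Eif3a (-0.79, adjusted p = 0.0109) and Usp32 (-0.59, adjusted p = 0.0384). Among genes named outside the rule, Acot2, Per1, Ciart and Nr1d2 also differed between the sets, with the values given above. Reads of Rpsa-ps9 and Rpl17 may be shared with near-identical copies.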

How the results depend on the processing

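Counts of called genes depended most on the GC correction, on which libraries were fitted and on single CD47-KO libraries. Against all exercise libraries together 5547 genes were called as counted. This became 3041 with the GC correction, 3032 with GC content and length, 3263 with the median GC content over transcripts and 2719 with the replicate block and the GC correction. The difference of Cd47 moved from -0.16 to -1.17 on the GC-corrected scale. With only the 9 CD47-KO and exercise libraries fitted, 3819 genes were called against exercise 1 to 3 and 2057 alike against both sets GC-corrected, and 1361 were held. Leaving out 1 of the 9 libraries at a time gave 523 to 635 held genes in place of 792, fewest without CD47-KO 3 (523) and CD47-KO 2 (524). Such fits gave 769 to 1013 genes alike against both sets GC-corrected, 1425 to 2157 against exercise 1 to 3 (fewest without exercise 2), 2200 to 3202 against exercise 4 to 6 and 1940 to 2614 against all exercise libraries. As counted they gave 2106 to 2459 alike against both sets, 3137 to 4250 and 3656 to 5051 against the sets, and 4077 to 5145 against all. DESeq2 held 1127 genes, limma-voom 883, RLE factors 797 and no filter 727. No named gene that was called turned its sign under an alternative to the fit it came from. Between the counts as deposited and the GC correction, 9 genes turned from higher to lower, and the medians of the mitochondrially encoded genes from 1.91 and 1.02 to -0.52 and -0.51. The title numbers were tried as a replicate block, which gave 5292 calls as counted. The correlations of CD47-KO and exercise 1 to 3 libraries of the same number were -0.0604, 0.0888 and 0.288, and those of other numbers -0.367 to 0.341. They rest on deviations from the means of 3 libraries each, so they cannot tell whether the numbers pair the libraries. Each of the 9 libraries had at least 54851831 counts, and the 3 libraries in each set limit the precision.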

Other observations

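A few held genes lay outside the groups above. Irs1, the insulin receptor substrate, was held higher, with 108, 117 and 103 CPM in CD47-KO against 26.1 to 41.6 in exercise and 24.1 to 45.8 in sedentary libraries (1.81, SE 0.23, adjusted p = 0.000169, and 1.88, SE 0.23, adjusted p = 0.0001 by edgeR's quasi-likelihood test). It kept its call in all 21 settings. Of 25 insulin signalling genes, 2 were held higher (8%, against 3.01% of all genes) and 0 lower. The other, Pik3ca, a catalytic subunit of PI3 kinase, was lost without CD47-KO 2 or 3 or exercise 1 or 3. At the neuromuscular junction, 1 gene of 16 was held higher and 1 lower (6.25% each, against 3.01% and 1.41% of all genes). Musk, the receptor kinase that clusters acetylcholine receptors, had 24.9, 23.9 and 55.5 CPM against 7.49 to 14.0 (1.86, SE 0.33, and 1.89, SE 0.33). Dok7, the adaptor that activates it, had 4.49, 4.94 and 5.69 CPM against 12.8 to 19.1 (-1.05, SE 0.24, and -1.28, SE 0.24), and was lost without exercise 3.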
